A study of Mus musculus with 4 samples.

Results

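Anti-Müllerian hormone (AMH), its receptor AMHR2, the inhibin and activin subunits INHA, INHBA and INHBB, their antagonist FST and the activin receptors ACVR1B, ACVR2A and ACVR2B were followed through 4 mouse testis libraries. The 9 genes were taken by name from the gene column of the deposited tables, where names are in capitals, and all 9 were found among 112302 entries. All 9 reached 1 RPKM (read counts scaled by gene model length and library total) in at least 1 library. The libraries were labelled testis of the BALB/C strain from fetuses of embryonic day 14 (E14) and day 18 (E18), and from mice aged 3 weeks and 6 months, with 1 library per stage and no treatment or mutation named. The RNA was bought from a supplier, and the labels do not give the number of animals behind each library. There are no replicates, so differences are given without p-values and hold between these libraries, not between stages in general. Intervals are exact, at 95%. They cover counting error alone, and PCR copies of 1 molecule make them too narrow.

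AMH is secreted by Sertoli cells of the fetal and immature testis and causes the Müllerian ducts, the precursors of uterus and oviduct, to regress. It binds AMHR2, a type II receptor with AMH as its ligand. Inhibins pair the alpha subunit INHA with a beta subunit, INHBA or INHBB, and restrain the release of follicle-stimulating hormone by the pituitary. Activins are pairs of beta subunits that stimulate it, and they signal through the type II receptors ACVR2A and ACVR2B and the type I receptor ACVR1B to SMAD proteins. FST, follistatin, binds activins and neutralizes them. All of these ligands belong to the transforming growth factor beta superfamily.

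On GRCm38, in the GENCODE vM21 annotation, AMH lies at chr10:80805243-80807648, AMHR2 at chr15:102445367-102454633, INHA at chr1:75507077-75510366, INHBA at chr13:16011851-16031621 and INHBB at chr1:119415465-119422248. FST lies at chr13:114452290-114458951, ACVR1B at chr15:101174067-101213684, ACVR2A at chr2:48814109-48903269 and ACVR2B at chr9:119402118-119434995. Because the beta subunits are related genes, shared sequence was searched among the annotated transcripts of the 36 pairs of members. The longest exact run in any pair was 18 bases, between INHBA and INHBB, and the longest in any other pair was 16. The run, shown because the results below set these subunits against each other, is coding in both genes. It lies at chr13:16027106.0-16027123.0 on the plus strand, in the last of 5 exons of the INHBA transcript, and at chr1:119417328.0-119417345.0 on the minus strand, in the last of 2 exons of the INHBB transcript.
Run shared by INHBA and INHBB: gtggaggagtgtggctgc

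RefSeq promoter sequences on GRCm38.p6 were given for 7 of the 9 members, AMH and FST being the others. The 250 bases before the start site are printed for AMHR2, INHBA and INHBB, because the first had its highest level at 6 months and the beta subunits, both higher at E18 than at E14, differed after birth. In these 3 genes the RefSeq and GENCODE start sites coincide. The INHA window is not shown, since its RefSeq start lies 532 bases inside the GENCODE gene. Capitals mark matches on either strand to 4 motifs. These were the half-site AAGGTCA of orphan nuclear receptors such as NR5A1, the GATA factor motif (AGATAA or AGATAG or TGATAA or TGATAG), the SOX core ACAAT and the cyclic AMP element half-site TGACG.
AMHR2 promoter, chr15:102445117-102445366, plus strand: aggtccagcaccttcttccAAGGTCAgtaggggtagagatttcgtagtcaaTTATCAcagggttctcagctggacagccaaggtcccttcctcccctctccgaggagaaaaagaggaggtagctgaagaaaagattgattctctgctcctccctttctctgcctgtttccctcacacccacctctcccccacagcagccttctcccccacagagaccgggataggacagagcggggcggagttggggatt
INHBA promoter, chr13:16011601-16011850, plus strand: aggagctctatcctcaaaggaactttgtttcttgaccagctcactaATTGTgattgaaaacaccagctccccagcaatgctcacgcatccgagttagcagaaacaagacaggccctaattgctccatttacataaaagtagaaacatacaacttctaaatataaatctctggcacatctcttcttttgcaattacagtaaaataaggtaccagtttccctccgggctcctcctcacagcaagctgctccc
INHBB promoter, chr1:119422249-119422498, minus strand: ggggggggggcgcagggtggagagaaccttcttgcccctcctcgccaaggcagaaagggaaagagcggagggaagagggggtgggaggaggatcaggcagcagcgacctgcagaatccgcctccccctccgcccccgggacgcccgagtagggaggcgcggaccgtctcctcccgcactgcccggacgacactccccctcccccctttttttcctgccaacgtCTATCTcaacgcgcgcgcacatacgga

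The AMHR2 window held 1 AAGGTCA, 231 to 225 bases before the start, and 1 GATA match on the reverse strand, 199 to 194 bases before it. INHBA held 1 SOX core, and INHBB 1 GATA match 27 to 22 bases before its start. The motifs did not overlap in these windows, and TGACG was in none of the 3. Among 32851 RefSeq windows of the same length, 4.08% held AAGGTCA, 26.5% a GATA match, 27.7% the SOX core and 17.8% TGACG. A match is a description of the letters and not evidence of binding. The INHBA window had a GC content of 43.2% and the INHBB window one of 68%.

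**Figure D1:**
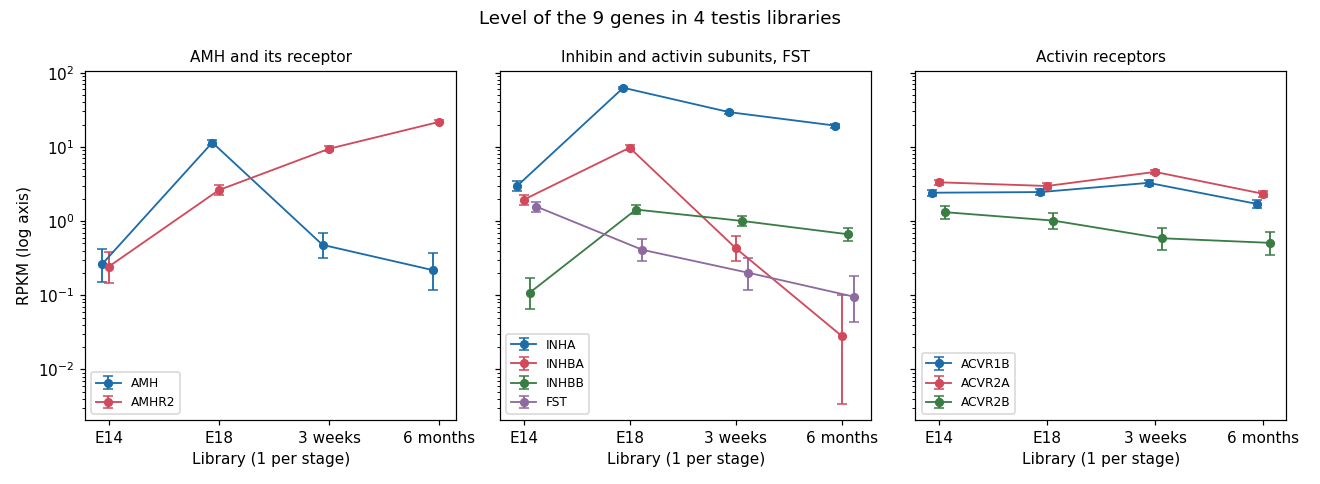
RPKM on a log axis of the 9 genes in the libraries of E14, E18, 3 weeks and 6 months (1 per stage), with AMH and AMHR2 at left, the subunits and FST in the middle and the activin receptors at right. Points are the deposited values and bars exact 95% Poisson intervals from recovered reads. AMH peaked at E18 at 11.4 RPKM while AMHR2 was highest at 6 months at 21.7.

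AMH was high in the E18 library and low in the other 3. It stood at 0.262 RPKM at E14 (17 reads, interval 0.153 to 0.420), 11.4 at E18 (652 reads, 10.6 to 12.4), 0.478 at 3 weeks (27 reads, 0.315 to 0.695) and 0.218 at 6 months (13 reads, 0.116 to 0.373). The E18 interval lay above the others, and those of E14, 3 weeks and 6 months overlapped. The ratio of 3 weeks to 6 months was still 2.19 (1.09 to 4.62), an interval that excluded 1. Those of 3 weeks to E14 (1.82, 0.956 to 3.56) and of 6 months to E14 (0.831, 0.371 to 1.82) included it. The intervals take the deposited scale as given. Under rescalings described below, the AMH ratio of 3 weeks to 6 months was 1.35 (median of ratios) and 0.960 (Sertoli cell genes). The ratio of E18 to E14 was 43.6 (27.0 to 75.3), and E18 exceeded 3 weeks by 24.0-fold (16.3 to 36.6). Among 18616 established protein-coding symbols AMH ranked 725 at E18 and 12377 at 6 months. The end of SF3A2, a splicing factor gene on the same strand, lies 318 bases before AMH. SF3A2 stood at 3.85, 3.77, 5.82 and 6.21 RPKM in order of age, so it did not follow AMH. Its part in the low AMH values was not tested.

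AMHR2 was higher in each library than in the one of the stage before. Its levels were 0.243 RPKM at E14 (19 reads), 2.62 at E18 (180 reads), 9.43 at 3 weeks (644 reads) and 21.7 at 6 months (1565 reads), and no 2 of their intervals overlapped. The ratios between adjacent stages were 10.8 (6.70 to 18.3), 3.61 (3.05 to 4.28) and 2.30 (2.10 to 2.53). AMHR2 thus ranked 4585 among the established symbols at E18 and 727 at 6 months. The hormone and the receptor changed places: the ratio of AMH to AMHR2 in RPKM was 1.08 in the E14 library (0.528 to 2.20), 4.37 at E18 (3.70 to 5.19), 0.0506 at 3 weeks (0.0331 to 0.0744) and 0.0100 at 6 months (0.00533 to 0.0172).

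INHA had the highest level of the 9 genes in the E18 and 3-week libraries. It stood at 2.98 RPKM at E14 (171 reads, 2.55 to 3.46), 62.6 at E18 (3160 reads, 60.4 to 64.8), 29.4 at 3 weeks (1470 reads, 27.9 to 30.9) and 19.3 at 6 months (1020 reads, 18.1 to 20.5). The 4 intervals were separate, with E18 highest and E14 lowest. The ratio of E18 to E14 was 21.0 (18 to 24.6). E18 exceeded 3 weeks by 2.13-fold (2.00 to 2.27), and 3 weeks exceeded 6 months by 1.52-fold (1.40 to 1.65). INHA ranked 106 of 18616 established symbols at E18, the highest rank of any member in any library. At 6 months it stood at 19.3 and AMHR2 at 21.7.

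INHBA, the beta A subunit, was also highest at E18 but nearly absent at 6 months. Its levels were 1.93 RPKM at E14 (149 reads, 1.64 to 2.27), 9.74 at E18 (660 reads, 9.01 to 10.5), 0.431 at 3 weeks (29 reads, 0.289 to 0.620) and 0.0282 at 6 months (2 reads, 0.00342 to 0.102). None of these intervals overlapped. E18 exceeded E14 by 5.03-fold (4.21 to 6.06) and 3 weeks by 22.6-fold (15.6 to 34.0). From E18 to 6 months the ratio was 345, with a counting interval of 95.2 to 2856 because of the 2 reads. Annotated genes on the opposite strand overlap INHBA, FST, ACVR2A and ACVR2B. How the authors' counting treated strand is not given in the sources used here, so reads of such partners cannot be told apart.

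INHBB, the beta B subunit, kept a low level after birth. It stood at 0.109 RPKM at E14 (18 reads, 0.0644 to 0.172), 1.43 at E18 (208 reads, 1.24 to 1.64), 1.00 at 3 weeks (145 reads, 0.847 to 1.18) and 0.663 at 6 months (101 reads, 0.540 to 0.806). The E18 library was 13.1-fold above E14 (8.11 to 22.6), 1.42-fold above 3 weeks (1.15 to 1.77) and 2.15-fold above 6 months (1.69 to 2.76). The E14 library was thus the low one, and the other 3 lay within a 2.15-fold range.

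The 2 beta subunits exchanged their order. INHBA exceeded INHBB by 17.8-fold at E14 (10.9 to 30.8) and by 6.82-fold at E18 (5.83 to 8.01), whereas INHBB exceeded INHBA by 2.33-fold at 3 weeks (1.55 to 3.60) and by 23.5-fold at 6 months (6.34 to 197). INHA and INHBB kept a narrower ratio: INHA was 27.4-fold above INHBB at E14 (16.8 to 47.3), 43.8-fold at E18 (38.1 to 50.7), 29.2-fold at 3 weeks (24.6 to 34.9) and 29.1-fold at 6 months (23.7 to 36.1). Its ratio to INHBA was 1.54 at E14 (1.23 to 1.93), 6.43 at E18, 68.0 at 3 weeks and 685 at 6 months (189 to 5661). Against the beta subunits summed, INHA was 1.46-fold in the E14 library, 5.61-fold at E18, 20.5-fold at 3 weeks and, in the oldest library, 27.9-fold. These are ratios of RNA per length and do not measure the inhibin or activin proteins.

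**Figure D2:**
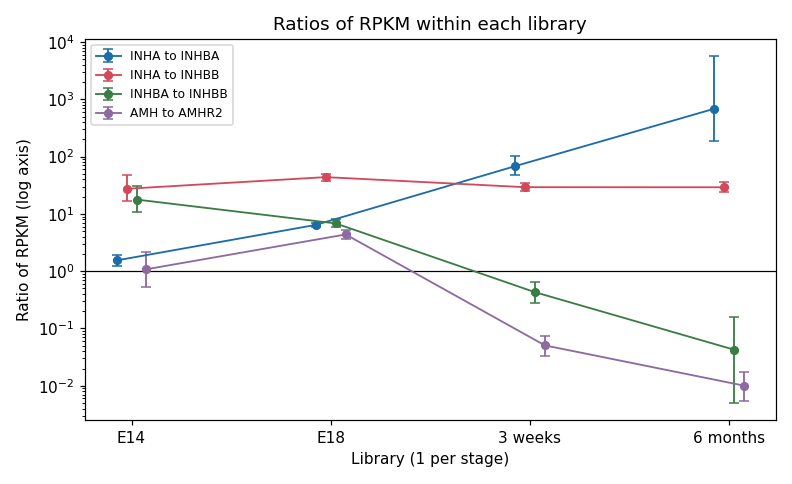
Ratios of RPKM within each of the 4 libraries on a log axis, with exact 95% counting intervals as bars and a line at a ratio of 1. INHBA to INHBB passes from 6.82 at E18 to 0.430 at 3 weeks, AMH to AMHR2 from 4.37 to 0.0506, and INHA to INHBB stays between 27.4 and 43.8.

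FST was highest at E14. It stood at 1.57 RPKM at E14 (161 reads), 0.409 at E18 (37 reads), 0.201 at 3 weeks (18 reads) and 0.0952 at 6 months (9 reads). E14 exceeded E18 by 3.83-fold (2.66 to 5.63) and E18 exceeded 3 weeks by 2.04-fold (1.13 to 3.80), while the interval of 3 weeks over 6 months included 1 (0.900 to 5.33). INHBA and INHBB summed were 1.30-fold above FST at E14 and 27.3-fold above it at E18, then 7.15-fold at 3 weeks and 7.26-fold in the oldest library. FSTL3, a follistatin relative that also binds activins, had another course, with 0.757 and 4.23 RPKM in the fetal libraries (E14, E18) and 2.98 and 2.10 in the postnatal ones.

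The activin receptors varied less than the ligands. ACVR1B, the type I receptor, stood at 2.41, 2.46, 3.27 and 1.70 RPKM in order of age, a range of 1.92-fold. ACVR2A stood at 3.33, 2.97, 4.60 and 2.33 RPKM in the same order, a range of 1.97-fold. As deposited, both had their highest value at 3 weeks and their lowest at 6 months. This order depended on the scaling: under the median of ratios, a rescaling described below, both were highest at E14 (2.64 and 3.64). E18 and E14 did not differ beyond counting error for ACVR1B (ratio 1.02, 0.884 to 1.18), and for ACVR2A the ratio was 0.892 (0.800 to 0.994). ACVR2A shares 446 bases at its end with ORC4, an origin recognition gene on the opposite strand, which stood at 1.81, 2.17, 3.78 and 1.01 RPKM and was likewise highest at 3 weeks and lowest at 6 months. Its part in the ACVR2A values was not tested.

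ACVR2B was highest at E14 and stood at 1.32, 1.01, 0.586 and 0.508 RPKM from E14 to 6 months (90, 61, 35 and 32 reads). The intervals of E18 over E14 (ratio 0.770, 0.547 to 1.08) and of 6 months over 3 weeks (0.867, 0.520 to 1.44) included 1, and that of 3 weeks over E18 did not (0.578, 0.370 to 0.891). ACVR2A exceeded ACVR2B by 2.53-fold in the E14 library (2.03 to 3.18), 2.93-fold at E18 (2.25 to 3.88), 7.84-fold at 3 weeks (5.59 to 11.3) and 4.58-fold at 6 months (3.20 to 6.77). In order of level, ACVR2A, INHA and ACVR1B led at E14, INHA, AMH and INHBA at E18, INHA, AMHR2 and ACVR2A at 3 weeks, and AMHR2, INHA and ACVR2A at 6 months.

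Differences between adjacent stages were then set against all entries, as later minus earlier log2(RPKM + 1), a scale on which the change of low genes is understated. A gene was called higher or lower at a difference of at least 1, which is 2-fold on that scale. Between E14 and E18, 5 of the 9 genes were called higher: INHA (4.00), AMH (3.30), INHBA (1.87), AMHR2 (1.54) and INHBB (1.13). Of 42964 measured entries, 2.17% were called higher in this comparison. No member was called lower, against 1.34% of entries, and FST came nearest at -0.87. The median difference was 1.13 over the members and 0.03 over all entries. Under ribosomal protein scaling INHBB was at 0.86, below the limit, and the other 4 were still called. Rescaling to the Sertoli cell genes described below moved the median of all entries by -1.39, past the limit itself. Under it 2 members were called higher, AMH (2.39) and INHA (2.03), against 0.349% of entries, and INHBA was at 0.05. The 4 members then called lower, FST and the 3 activin receptors, stood against 63.5% of entries, and the median of all entries was -1.26. FST was at -2.50 under this rescaling and, as given above, at -0.87 as deposited.

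Between E18 and 3 weeks, AMHR2 was called higher (1.53), against 32% of entries, and AMH (-3.07), INHBA (-2.91) and INHA (-1.07) were called lower, against 10.5%. The median was -0.28 over the members and 0.46 over all entries. AMH and INHBA stayed lower under each of the 4 rescalings, at -2.25 or below and -2.11 or below. INHA was lower under 3 of them and at 0.25 when libraries were rescaled over ribosomal protein genes. That rescaling moved the median of all entries by 0.80. Of the 8 members that passed the filter under it, 3 were called higher, AMHR2, ACVR2A and ACVR1B, against 55.1% of entries, and 2 lower, AMH and INHBA, against 2.13%. INHBB (-0.28), FST (-0.23) and ACVR2B (-0.34), lower as deposited, were at 0.47, 0.08 and 0.25 under it, and ACVR1B and ACVR2A, higher as deposited (0.31 and 0.50), were at -0.58 and -0.49 when rescaled to the Sertoli cell genes. Rescaled to the Sertoli cell genes, which moved the median by -0.65, no member was called higher, against 12.5% of entries, and 3 were lower, against 17.6%, with AMHR2 at 0.35 and INHA at -2.35.

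Between 3 weeks and 6 months, 1 member was called higher, AMHR2 (1.12), against 9.73% of entries, and none was called lower, against 14.1%. With 9 genes, a count of 1 higher is near the 9.73% of entries. AMH (0.56), INHBA (0.52), FST (0.26) and ACVR2B (0.67) stood below 1 in log2(RPKM + 1) at 3 weeks. They could not be called lower whatever their fall, and INHBB (1.00) only if nearly absent, so the lack of lower calls does not show stability. In RPKM, 3 weeks exceeded 6 months by 15.3-fold for INHBA (3.87 to 132) and 2.19-fold for AMH (1.09 to 4.62). The median was -0.28 over the members and -0.31 over all entries. AMHR2 was at 0.94, below the limit, when libraries were rescaled to an equal sum over protein-coding symbols, and between 1.34 and 2.09 under the other 3 rescalings. INHA stood at -0.58 as deposited, at 0.09 under the median of ratios and at 0.54 when rescaled to the Sertoli cell genes, so its direction from 3 weeks to 6 months depended on the scaling. The same held for INHBB, at -0.27 as deposited and 0.18 when rescaled to the Sertoli cell genes. It also held between these settings for ACVR1B (-0.66 and 0.14), ACVR2A (-0.75 and 0.13) and ACVR2B (-0.07 and 0.22). AMH (-0.28 and 0.01) and FST (-0.13 and 0.01) were nearly level when rescaled to the Sertoli cell genes. That rescaling moved the median of all entries by 0.60, and differences of such a size can change sign with it.

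**Figure D3:**
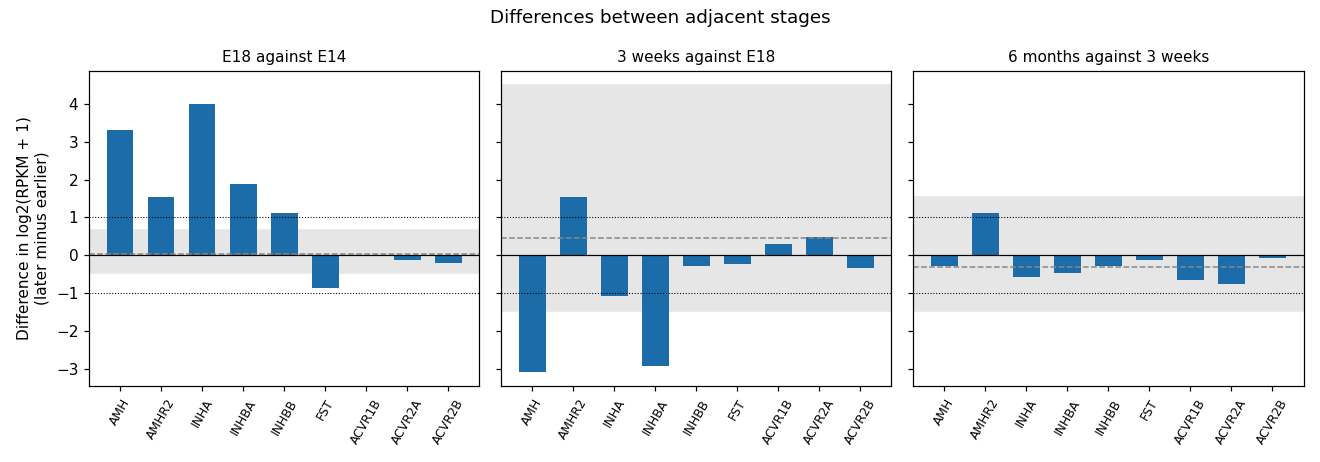
Difference in log2(RPKM + 1), later minus earlier library, of the 9 genes (bars) in each of the 3 comparisons of adjacent stages. Grey bands span the 5th to 95th percentile of all 42964 measured entries, dashed lines mark their median and dotted lines a difference of 1 in either direction. At E18 5 bars rise above the band, and at 3 weeks those of AMH (-3.07) and INHBA (-2.91) fall below it.

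Between E14 and E18, markers of the testis cell types that make these factors moved with several members, as did the kidney, bladder and smooth muscle lists given below. In bulk tissue, fewer cells of a type and less RNA per cell cannot be told apart. The summed RPKM of 19 Sertoli cell genes, a list without members, was 50.5 and 194 in the E14 and E18 libraries, and 302 and 246 in the 3-week and 6-month ones. TRF, transferrin, which liver also makes, gave 25.5 of the E14 sum. Without it the sums were 24.9 at E14 and 181 at E18, a ratio of 7.25 in place of 3.85. At E14 RHOX8 and FSHR were listed at 0, and DHH, the Sertoli signal desert hedgehog, was at 0.239 RPKM against 7.64 at E18. Of 18 measured Sertoli cell genes, 13 were called higher at E18, against 2.17% of entries, and 0 lower, against 1.34%. At 3 weeks 6 were higher, a share near the 32% of all entries, and 3 were lower, against 10.5%. The median of the list at that step was 0.38, near the 0.46 of all entries, and AMH and INHA stood at -3.07 and -1.07. The part of Sertoli cell content in the E14 values was not tested beyond the rescaling above. Spermatocyte and spermatid genes summed to 3.21, 7.09, 982 and 6556 RPKM in order of age.

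Leydig cell genes, most of them enzymes of steroid synthesis, were set beside AMHR2. Their summed RPKM was 8.46 at E14 and 139 at E18, then 71.9 at 3 weeks and 579 in the oldest library, and 6 of 8 were called higher at 6 months, against 9.73% of entries, as AMHR2 was. INSL3, a peptide hormone of testis descent, gave 357 of the 6-month sum, and without it the sums were 52.3 at 3 weeks and 222 at 6 months. Between E18 and 3 weeks 1 Leydig cell gene was called higher, HSD3B6, against 32% of entries. At that step 3 were lower, against 10.5%, while AMHR2 was higher. Spermatocyte and spermatid genes, 11 in the list, had 8 called higher at 3 weeks, against 32% of entries, and 5 at 6 months, against 9.73%. These are the steps at which AMHR2 was called higher after birth. The list had 2 lower at 6 months, against 14.1%. The Sertoli cell sum given above was also higher at 3 weeks (302) than at E18 (194), and lower again at 6 months (246). The part of any of these cell types in the AMHR2 level was not tested.

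**Figure D4:**
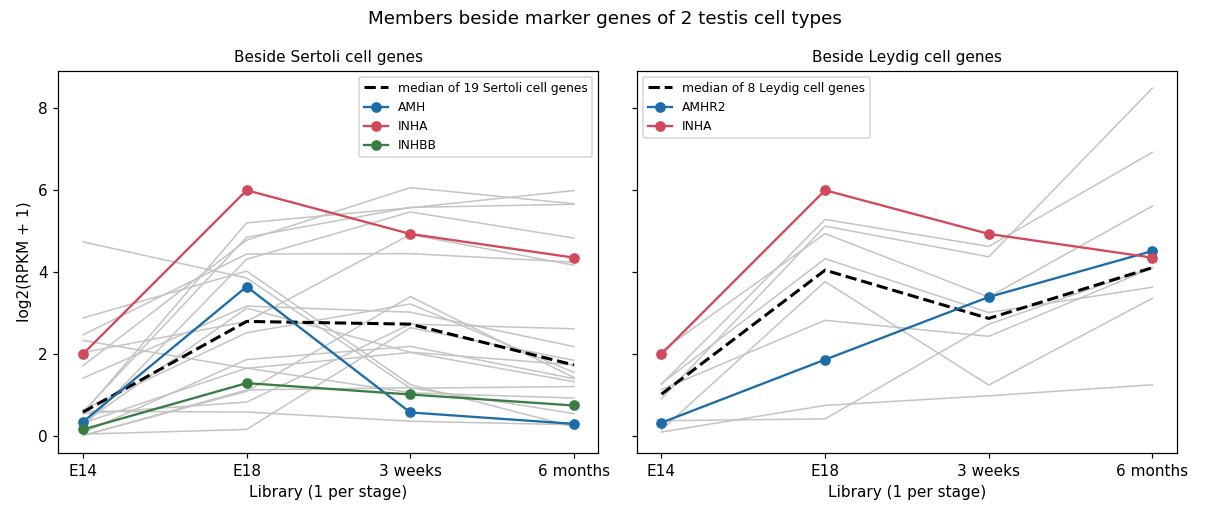
log2(RPKM + 1) in the 4 libraries of AMH, INHA and INHBB beside 19 Sertoli cell genes (left) and of AMHR2 and INHA beside 8 Leydig cell genes (right). Grey lines are single marker genes and dashed black lines their medians, 2.79 at E18 and 2.72 at 3 weeks for Sertoli cells. AMH drops between these stages while AMHR2 is higher at each later stage.

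The fetal libraries also held RNA of other tissues. At E14 the summed RPKM of 4 cartilage genes was 67.6, of 5 skeletal muscle genes 186 and of 4 liver genes 296, against 0.489, 44.2 and 57.7 at E18. Most of the skeletal muscle contrast came from MYLPF, which fell from 146 to 10.7. Of these 5 muscle genes, 2 were called lower in that comparison, MYLPF and MYH3, against 1.34% of entries. The other 3 were within 2-fold on the log2(RPKM + 1) scale, and CKM rose from 15.9 to 20.4. Bladder urothelium genes, 4 in number, summed to 8.57, 41.3, 0.587 and 0.238 RPKM in order of age, and kidney tubule genes to 1.02, 19.7, 0.156 and 0.420. In each of these lists 4 of 4 genes were called higher at E18, against 2.17% of entries. Peritubular and smooth muscle genes summed to 192, 752, 45.1 and 69.7, and 5 of 5 were called higher at E18, against the same share. Without ACTG2 they summed to 158, 525, 42.3 and 12.3. ACTG2 was the 1 of the 5 genes called higher at 6 months, against 9.73% of entries. The other 4 were called lower at that step, against 14.1%. Stroma genes such as DCN and COL1A1 summed to 147, 310.1, 59.4 and 11.5. At 3 weeks 5 of 5 were called lower, against 10.5% of entries, and again at 6 months, against 14.1%. INHBA, AMH and these 4 lists were each highest at E18 and far lower at 3 weeks. INHA and INHBB were also highest at E18, with smaller falls, and FST was highest in the E14 library. A list of 7 granulosa cell and ovary genes summed to 5.29, 7.75, 1.21 and 2.04 RPKM. Its FOXL2, a factor of granulosa cells, did not exceed 0.452 RPKM, while WNT4, a signal of the fetal ovary and also of kidney, had 1.73, 3.46, 0.183 and 0.0932, and RSPO1, which acts with it, 0.438, 1.91, 0.426 and 0.0865. Of its 4 measured genes, RSPO1 was called higher at E18, against 2.17% of entries. WNT4 and RSPO1 were called lower at 3 weeks, against 10.5%, as INHBA, AMH and INHA were. The part of these tissues in the values of INHBA, FST, AMH or any other member was not tested.

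Regulators of AMH differed among themselves. NR5A1, a nuclear receptor that activates AMH, stood at 0.394, 11.96, 3.67 and 4.82 RPKM in order of age. The Wilms tumour factor WT1 stood at 1.64, 7.95, 7.07 and 3.51, and GATA4 at 0.237, 2.13, 1.06 and 0.886. SOX9, which switches AMH on in the fetal testis and is also made in cartilage, had 4.00 RPKM in the E14 library and 2.12 in that of E18. Of the 8 measured regulators, 5 were called higher at E18 (WT1, GATA4, NR5A1, DMRT1 and FSHR), against 2.17% of entries, and 0 lower, against 1.34%. At 3 weeks DMRT1 and NR0B1 were higher, against 32% of entries, and NR5A1 lower, against 10.5%. At 6 months DMRT1 was lower, against 14.1%.

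Of 43 further ligands, receptors, antagonists and SMAD proteins of the pathway, 22 were measured. Between E14 and E18, 1 was called higher, FSTL3 (1.57), against 2.17% of entries. NOG, a BMP antagonist (-1.01), was the 1 called lower, against 1.34%, and the median was 0.06. At 3 weeks 8 were lower, against 10.5% of entries, and 1 higher, against 32%, with a median of -0.60 against 0.46 over all entries. The 8 were the ligands TGFB2, TGFB3, BMP4 and BMP7, the receptors ACVRL1 and TGFBR2, and the inhibitory SMAD6 and SMAD7. The 1 called higher was FOXH1, a partner of SMAD proteins in the nucleus (0.0856 and 2.80 RPKM). At 6 months 3 were lower, against 14.1% of entries, and 1 higher, against 9.73%. The BMP receptors BMPR1A (5.08 and 1.25) and BMPR2 (4.96 and 1.37) and the common mediator SMAD4 (2.62 and 0.712) were lower. SMAD6 was higher (0.303 and 1.73).

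The remaining activin subunits were close to the detection limit. INHBC and INHBE did not exceed 0.0958 RPKM in any library. The inhibin co-receptor TGFBR3, betaglycan, stood at 2.32, 4.25, 1.90 and 1.99 RPKM and was within 2-fold on the log2(RPKM + 1) scale in each comparison. The receptors' signal carriers SMAD2 (2.94, 3.18, 2.44 and 1.62) and SMAD3 (1.65, 1.65, 0.691 and 0.479) were within it too. ID1, ID2 and ID3, which BMP-type signals induce, were lower at 3 weeks, ID1 with 13.0 RPKM at E18 and 1.40 at 3 weeks and ID3 with 9.38 and 0.707. FURIN, a convertase that cleaves precursors of these ligands, stood at 3.30, 3.54, 1.30 and 0.886.

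The genes whose course was most like that of a member were ranked by the root mean square difference in log2(RPKM + 1), centred on each gene's mean, over the 4 libraries. For AMH, APOA4 (0.16), HSD17B1 (0.16), a steroid dehydrogenase, and ADH1 (0.24) came first among 9802 established symbols with a mean of at least 1 RPKM. APOA4 had 0.0142, 6.89, 0 and 0 RPKM in order of age, and HSD17B1 had 0.115, 13.3, 0.308 and 0.0834. ADH1 had 3.75, 30.6, 3.48 and 3.59. For INHA the nearest were NR5A1 (0.46), DHH (0.49) and VNN1 (0.54), and for INHBA TINAGL1 (0.13), UPK1B (0.17) and MATN2 (0.17). UPK1B is a urothelial plaque protein from the bladder list, with 2.11, 11.9, 0.250 and 0.0316 RPKM. For AMHR2 the nearest were PNPLA2 (0.32), a triglyceride lipase, DNAAF3 (0.39) and ABHD4 (0.40). For INHBB they were PCED1B (0.03), HDC (0.07) and ITM2B (0.08), and for FST GAS2 (0.05), FGFR3 (0.07) and NKAIN1 (0.08). The receptors, which varied little, had DLG1, NETO2 and PSMD3 as the nearest to ACVR1B, ACVR2A and ACVR2B, each at 0.02 or less. With 4 libraries, likeness of course is a description.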

How the data were processed

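RNA was sequenced from 4 testis libraries. Per the labels' protocols, directional libraries were made from polyadenylated RNA after removal of ribosomal RNA and addition of spike-ins. The deposited values are RPKM, computed by the authors. Per the submitters' processing notes, TopHat2 was used with mm10. For the counter, its annotation and its treatment of strand and shared reads: not given in the sources used here. The RPKM denominator, taken as the most frequent value from single-exon genes, was 38903334, 34228140, 33952471 and 35801602 reads from the youngest to the oldest library, so 3 reads per kilobase correspond to 0.0771, 0.0876, 0.0884 and 0.0838 RPKM. Reads and 1 model length per gene were the smallest whole numbers that gave all 4 values at a relative tolerance of 1e-09, found for 172 of 172 list entries. A common factor may be lost, and intervals are then too wide. The recovered lengths were 1475 bases for INHA and 4255 for INHBB, as annotated, but 1980 for INHBA (6390 annotated), 2640 for FST (4589) and 1758 for ACVR2B (3928). Intervals of levels are exact Poisson and those of ratios exact Clopper-Pearson, at 95%.

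Differences used a pseudocount of 1 and were taken over the 42964 entries that reached 1 RPKM in any library. Gene lists and members were chosen with earlier results of these data known. Named genes were the members, members of fixed lists with large differences, and the 3 nearest in course. Some list genes within 2-fold were named, and the list sums without TRF, ACTG2 or INSL3 taken, after the values were seen. The alternatives tried were dropping the filter, raising it to 5 RPKM, leaving E14 out of it, a pseudocount of 0.1, a limit of 4-fold and 4 rescalings: to an equal sum over established protein-coding symbols, by the median of ratios, over 30 ribosomal protein genes and to the median change of 17 Sertoli cell genes above 0 in all libraries. Scripts used Python 3.11.15, numpy 2.4.6, scipy 1.17.1 and pandas 2.3.3, and were tested on simulated data.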

Additional observations from a re-analysis of the deposited data

How the results depend on the processing

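Each count of members called was recomputed under 9 alternatives, and 44 of 54 such counts stayed within 1.5 times the reported one. With no filter, a minimum of 5 RPKM, a filter without E14, or the median of ratios, none moved further. Dropping the filter or leaving E14 out of it could not move a count, and the 44 include these settings. All 9 members passed the filter, and without E14 only FST failed it, which had no call as deposited. A pseudocount of 0.1 gave 1 member lower at E18, FST, and 1 lower at 6 months, INHBA. At 4-fold, 2 members were higher at E18, 0 at 3 weeks and 0 at 6 months. The share of all entries was computed only as deposited and under the 4 rescalings. Counts at the pseudocount of 0.1, at 4-fold and under the changed filters thus have no background beside them. An equal sum over protein-coding symbols left 0 higher at 6 months, against 7.76% of entries. Ribosomal protein scaling gave 3 higher at 3 weeks, against 55.1% of entries, and turned INHA to 0.25 there. INHBB lost its call at E18 (0.86) under it. Sertoli cell scaling gave 2 higher and 4 lower at E18, against 0.349% and 63.5% of entries, and 0 higher at 3 weeks, against 12.5%. It shifted the median of all entries by -1.39, -0.65 and 0.60 in the 3 comparisons. The other shifts above 0.1 in size were -0.19 for the equal sum at 3 weeks, -0.20 and 0.38 for the median of ratios at 3 weeks and 6 months, and 0.80 for ribosomal protein scaling at 3 weeks. The cause was not tested beyond the construction of each scaling. Depth limits INHBA at 6 months (2 reads), FST at 6 months (9 reads) and AMH at 6 months (13 reads). With 1 library per stage no library could be left out. No paired analysis was possible because each stage has 1 library.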
